A study of Bos taurus with 2 samples.

Results

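The genes of T cell costimulation and checkpoint control, which set how strongly T cells respond, were read in single cells of the bovine mammary gland: CTLA4, ICOS, CD28, CD40LG, FOXP3, PDCD1, TIGIT, CD96 and CRTAM. They are 9 of the 27270 genes of the files, chosen by name, with earlier results of these data known. They were read across T and natural killer (NK) barcodes picked with raw counts of 7 gate genes (CD3E, CD3D, CD3G, CD4, CD8A, CD8B and NCR1). These barcodes were 5760 of the 12823 kept in the lactating adult library, and 105 of the 12199 kept in the newborn library. Both libraries came from mammary tissue of Holstein dairy cattle, dissociated with enzymes and run with droplet chemistry that tags the 3' end of each transcript. The labels name no treatment, no age in days and no number of animals behind a library. Each stage is 1 library, so the stage cannot be told apart from the animal or the library, and no test between groups was possible. All intervals are 95% intervals of counting error alone.

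A T cell that meets its antigen needs a second, costimulatory signal, which CD28 receives from CD80 and CD86 on antigen-presenting cells. CTLA4 competes with CD28 for the same ligands and restrains the response. ICOS is a relative of CD28 that supports helper T cells, and CD40LG (CD40 ligand) is the molecule by which helper T cells activate B cells, macrophages and dendritic cells through CD40. FOXP3 is the transcription factor that defines regulatory T cells, which carry much CTLA4. PDCD1 encodes PD-1, an inhibitory receptor for CD274 (PD-L1) and PDCD1LG2. TIGIT and CD96 bind PVR and related nectins and are counted among the checkpoint receptors, and CRTAM binds the adhesion molecule CADM1 on activated lymphocytes and NK cells. In cattle, gamma delta T cells, most of which lack CD4 and CD8, are more common than in humans or mice.

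The adult library held 15897 barcodes with a median of 2723 transcript counts (unique molecular identifiers, UMIs), and the newborn library 13772 with a median of 4581. A T barcode had at least 2 UMIs of CD3E, CD3D and CD3G together, and an NK barcode had NCR1 and no CD3. The adult T barcodes were 652 with CD4 alone (CD4 T), 1642 with CD8A or CD8B alone (CD8 T), 87 with both, 3092 with none of these (double-negative) and 151 with NCR1 besides CD3. There were 136 adult NK barcodes. A double-negative barcode is one where no CD4 or CD8 UMI was captured, and absence of the transcript cannot be told apart from a missed capture. The median depth ran from 2739 UMIs in double-negative to 3560.5 in NK barcodes, and was 4722 in the 87 double-positive ones. Among markers that the gates do not use, the T cell gene CD5 read 171 CPM (UMI counts normalised to the summed UMIs of the gate) in CD4 T, 42.8 in CD8 T and 7.28 in NK barcodes. The NK regulator EOMES read 18.5, 40.9 and 271. Of the adult T barcodes, 343 (6.10%) also met the marker rule of another cell class. The 7 epithelial markers summed to 1163 CPM in CD4 T, 1655 in CD8 T, 1579 in double-negative T and 404 in NK barcodes, against 14836 in epithelial barcodes. The 9 endothelial markers summed to between 302 and 519 CPM in those 4 gates, against 7713 in endothelial barcodes. No marker of either list was at 0 in these gates. Before doublet removal 6686 adult and 92 newborn barcodes met the T rule, and 1062 and 22 of them were removed. The libraries shared 57 barcode sequences, of which 1 was a T or NK barcode in both.

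Within the adult library the 9 genes fell into opposite patterns. CTLA4, ICOS, CD28, CD40LG, PDCD1 and TIGIT were at least 2-fold higher in CD4 T than in CD8 T barcodes, and CD96 and CRTAM were at least 2-fold lower. These were 6 and 2 of the 8 genes with at least 20 UMIs in both gates together. Over all 10517 genes measured there, 4.55% were 2-fold or more higher and 4.75% lower in CD4 T. FOXP3, with 7 UMIs in both gates, was not measured by that rule. The median log2 ratio of CD4 T over CD8 T was 2.46 for the members and 0.11 for all genes.

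**Figure D1:**
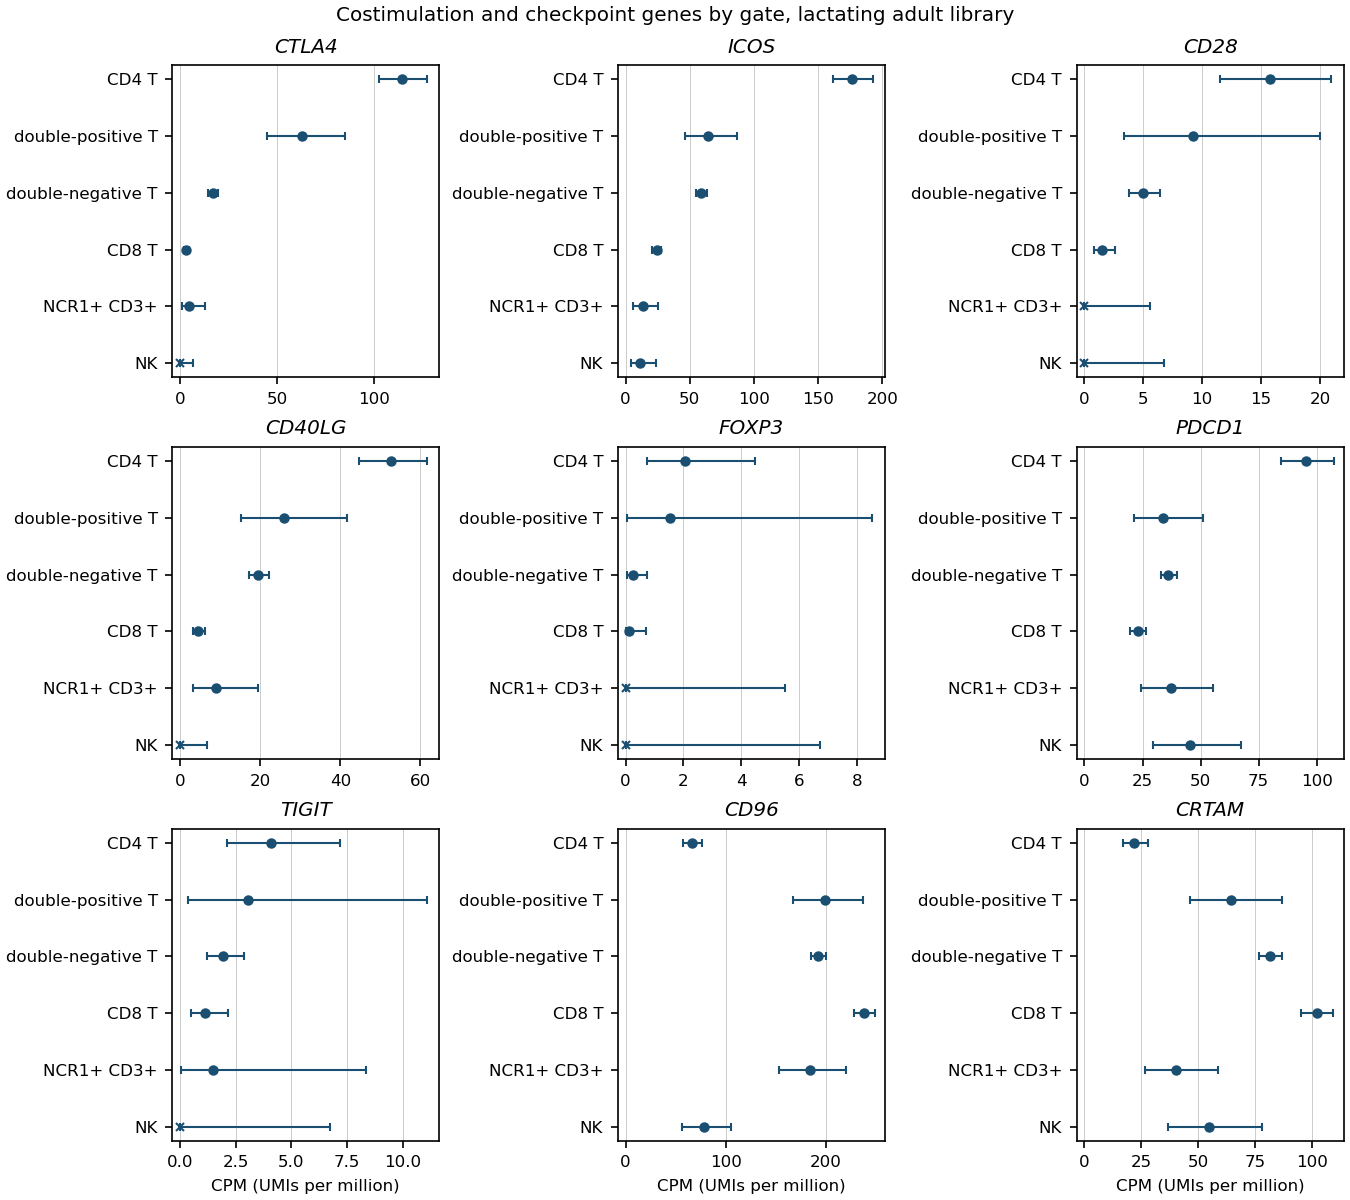
Level of each gene in the adult T and NK gates, in CPM of the gate (horizontal axis, scaled per gene), with exact Poisson intervals as bars and a cross where no UMI was found; "NCR1+ CD3+" are the T barcodes with NCR1. CTLA4, ICOS, CD28, CD40LG and PDCD1 are highest in CD4 T (114, 177, 15.7, 52.6 and 95.3 CPM), and CD96 and CRTAM in CD8 T (238 and 102 CPM).

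CTLA4 (ENSBTAG00000013170) had the largest ratio between CD4 T and CD8 T of the 8 genes measured. It read 114 CPM (103 to 127; 335 UMIs) in CD4 T, 62.9 (45.1 to 85.3) in double-positive, 16.9 (14.7 to 19.4; 204 UMIs) in double-negative and 3.12 (2.02 to 4.61; 25 UMIs) in CD8 T barcodes. In T barcodes with NCR1 it read 4.49 CPM from 3 UMIs, and NK barcodes held 0 UMIs, which allows up to 5.46 CPM. The intervals of the first 3 gates did not overlap, while the levels in CD8 T, NCR1 and NK barcodes were not distinguishable at this depth. The ratio of CD4 T to CD8 T was 36.7 (24.4 to 57.5). CD4 T barcodes were 11.3% of the T and NK barcodes and held 55.1% of their CTLA4 UMIs. A CTLA4 UMI was seen in 18.4% of CD4 T and 0.914% of CD8 T barcodes. The CD8 T share lay close to the 0.523% of epithelial barcodes, but their median depth was 11113 UMIs against 3176.5, so these shares are not at equal depth. In endothelial barcodes, whose median of 2993 UMIs is nearer, 3 of 2123 held a CTLA4 UMI, against 15 of 1642 CD8 T barcodes. CTLA4 was also concentrated within the gate: its 335 UMIs lay in 120 barcodes, 15 of these held 5 or more, and 1 held 34 (10.1%).

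ICOS (ENSBTAG00000021596) was the most widely detected member in CD4 T barcodes, at 177 CPM (162 to 193; 517 UMIs) and in 45.7% of them. Double-positive barcodes read 64.4 CPM and double-negative 59.0 (54.7 to 63.5; 711 UMIs), which did not differ beyond their intervals. CD8 T barcodes read 24.2 (20.9 to 27.9), and NCR1-bearing T barcodes (13.5) and NK barcodes (10.9, from 6 UMIs) were lowest. CD4 T exceeded CD8 T by 7.30-fold (6.18 to 8.65) and double-negative T by 3.00-fold (2.67 to 3.36). Unlike CTLA4, most ICOS was outside the CD4 gate, with 35.0% of the T and NK UMIs in CD4 T and 48.1% in double-negative barcodes.

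CD28 (ENSBTAG00000007445) was sparse, with 124 UMIs in all T barcodes. It read 15.7 CPM (11.5 to 21.0) in CD4 T, 9.20 in double-positive, 4.98 (3.80 to 6.41) in double-negative and 1.498 (0.774 to 2.62) in CD8 T barcodes, with 0 UMIs in NK barcodes. The CD4 T to CD8 T ratio was 10.5 (5.47 to 21.8). Nearly every positive barcode held a single UMI, with 44 of the 45 in CD4 T. The shares of barcodes with a UMI were 6.90% in CD4 T and 0.670% in CD8 T, against 0.047% in endothelial barcodes.

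CD40LG (ENSBTAG00000017843), the helper signal to B cells and myeloid cells, read 52.6 CPM (44.6 to 61.6; 154 UMIs) in CD4 T barcodes. It read 26.1 in double-positive, 19.6 (17.2 to 22.2) in double-negative, 8.99 in NCR1-bearing and 4.62 (3.25 to 6.36) in CD8 T barcodes, and 0 UMIs were found in NK barcodes. CD4 T stood 11.4-fold (7.92 to 16.8) above CD8 T. The double-negative gate, which is much larger, held the greatest part of the UMIs (52.4%, against 34.2% in CD4 T).

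TIGIT (ENSBTAG00000011921) was found in 47 adult T barcodes with 1 UMI each. The levels were 4.10 CPM in CD4 T (12 UMIs), 1.91 in double-negative (23 UMIs) and 1.12 in CD8 T barcodes (9 UMIs), with 0 UMIs in 574 epithelial and 2123 endothelial barcodes. The ratio of CD4 T to CD8 T was 3.65 (1.41 to 9.81). At this depth the order of the lower gates was not resolved.

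CD96 (ENSBTAG00000014441) had the most UMIs of the 9 (4670 in adult T barcodes) and ran the other way. It read 238 CPM (227 to 249; 1907 UMIs) in CD8 T, 199 in double-positive, 192 (184 to 200) in double-negative and 184 (153 to 220) in NCR1-bearing T barcodes. NK barcodes, at 78.3 (56.7 to 105), and CD4 T barcodes, at 66.0 (57.0 to 75.9), were lowest and overlapped. A CD96 UMI was present in 58.3% of CD8 T and 19.8% of CD4 T barcodes, against 1.13% of endothelial barcodes. CD8 T exceeded CD4 T by 3.61-fold (3.11 to 4.21).

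CRTAM (ENSBTAG00000005193) was also highest in CD8 T, and lowest in CD4 T. It read 102 CPM (95.3 to 109; 819 UMIs) in CD8 T, 81.8 (76.8 to 87.1) in double-negative, 64.4 in double-positive, 54.6 (36.9 to 78.0) in NK, 40.4 in NCR1-bearing T and 21.9 (16.8 to 27.9) in CD4 T barcodes. CD8 T stood apart from double-negative T, and each later pair of neighbours in this order overlapped. The ratio of CD8 T to CD4 T was 4.67 (3.62 to 6.13). CD8 T and double-negative barcodes together held most CRTAM UMIs, and CD4 T barcodes held 3.25%.

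PDCD1 (ENSBTAG00000011543), which encodes PD-1, was seen in every gate. It read 95.3 CPM (84.5 to 107; 279 UMIs) in CD4 T barcodes, then 45.5 (29.5 to 67.2; 25 UMIs) in NK, 37.4 in NCR1-bearing, 36.1 (32.8 to 39.6) in double-negative, 33.7 in double-positive and 23.0 (19.8 to 26.5; 184 UMIs) in CD8 T barcodes. The intervals of the 4 middle gates overlapped, CD4 T lay above all of them, and CD8 T lay below double-negative T. CD4 T exceeded CD8 T by 4.15-fold (3.43 to 5.03) and double-negative T by 2.64-fold (2.27 to 3.08). With every barcode thinned to 1000 UMIs, PDCD1 was found in 10.97% of CD4 T and 2.74% of CD8 T barcodes.

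**Figure D2:**
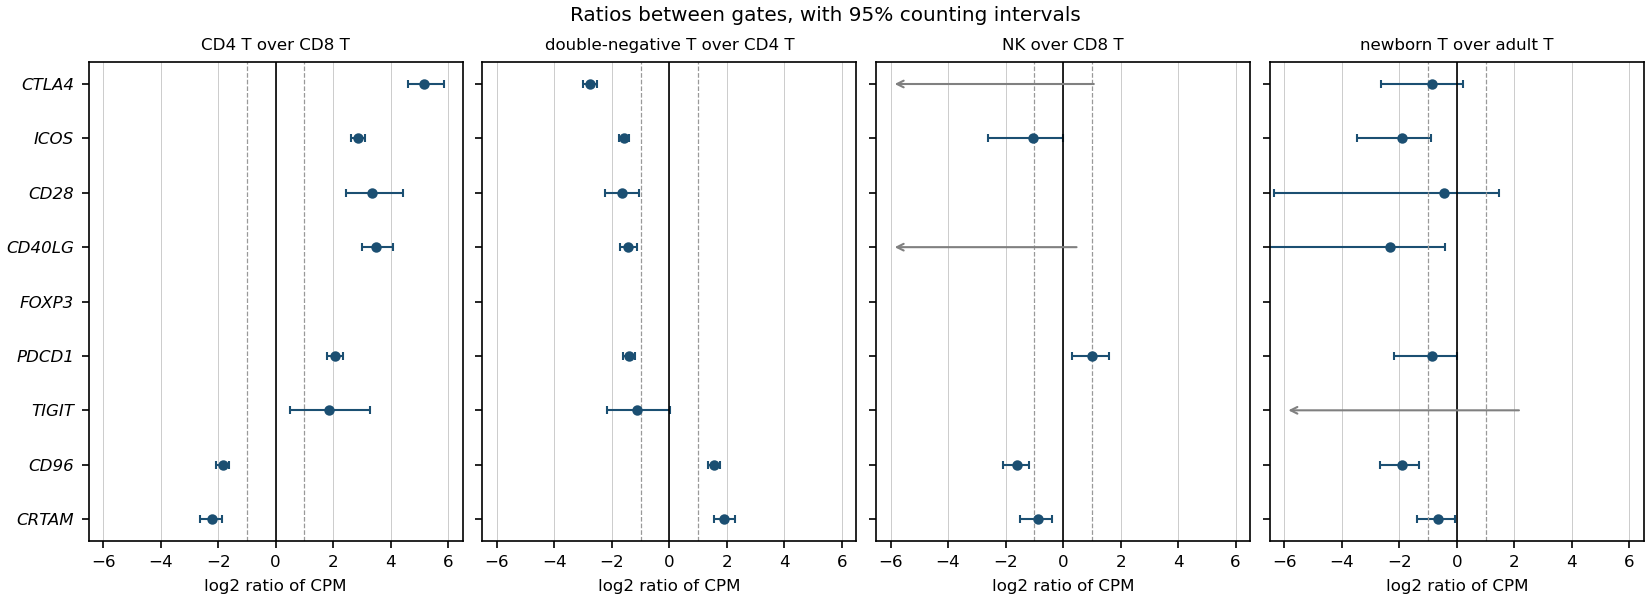
Log2 ratio of each gene in the comparisons of gates and stages, with intervals of counting error (cut at the edge of the axis) and dashed lines at 2-fold; grey arrows stand for genes with 0 UMIs on one side. The CD4 T over CD8 T ratios run from a 36.7-fold excess of CTLA4 to CRTAM, which is 4.67-fold higher in CD8 T.

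Double-negative T barcodes resembled neither gate fully. Against CD4 T, the same 6 genes were at least 2-fold lower and CD96 and CRTAM at least 2-fold higher, 8 of 8 measured, while over 11095 genes 4.81% were 2-fold or more higher and 4.74% lower. CTLA4 differed most (6.77-fold lower, interval 5.67 to 8.09). CD96 was 2.91-fold (2.52 to 3.39) and CRTAM 3.74-fold (2.90 to 4.89) higher in double-negative T. The TIGIT difference, 2.15-fold, had an interval from 0.975 to 4.50 that includes 1. Of 7 genes of gamma delta and innate-like T cells measured, 3 were 2-fold or more higher in double-negative T and 0 lower. Over the 7, the median log2 ratio was 0.39. The 3 were KLRB1 (log2 2.72), IL23R (2.67) and BLK (1.71), which is also among the B cell markers used here. Other lists shifted further: 5 of 10 cytotoxic granule genes were higher (median 1.12) and 13 of 16 cell division genes lower (median -1.95). Of 5 gamma delta and innate-like genes measured between CD4 T and CD8 T, 2 were lower in CD4 T and 0 higher. The constant genes of the gamma delta receptor were not found under their usual symbols, so the receptor type was not analysed here.

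The 136 NK barcodes carried mainly PDCD1, CD96 and CRTAM. Of the 6 members measured against CD8 T, 5 passed 2-fold in the log2 ratios with a prior of 0.5 UMIs, and 3 of those (ICOS, CTLA4 and CD40LG) rested on 6 or 0 NK UMIs. PDCD1 was 1.98-fold higher by counts (1.25 to 3.02; log2 1.01), and CD96 was 3.04-fold (2.25 to 4.21) lower. Over all 9965 genes measured, 7.28% were 2-fold or more higher and 14.4% lower in NK. The PDCD1 ratio lies at the 2-fold line, and in a separate random thinning to 1000 UMIs its shares overlapped (3.70% of 135 NK and 2.86% of 1607 CD8 T barcodes). CRTAM was 1.87-fold (1.30 to 2.79) lower, and the interval of ICOS reached 1. CTLA4 and CD40LG had 0 UMIs in NK barcodes, but the limit that 0 UMIs allows exceeds their CD8 T level, so a difference was not detectable at this depth. T barcodes with NCR1 differed from NK barcodes in CD96, which was 2.35-fold (1.65 to 3.41) higher, 1 of 3 members measured, although thinned to 1000 UMIs its shares overlapped (14.6% of 151 and 12.6% of 135 barcodes). Among all 4712 genes of that comparison 5.94% were 2-fold or more higher and 4.71% lower. PDCD1 and CRTAM had ratios of 0.823 and 0.740 there, with intervals that include 1.

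Other genes of costimulation and inhibition were read from lists. Of 10 other costimulatory receptors measured, 5 were at least 2-fold higher in CD4 T than in CD8 T and 0 lower, with a median log2 ratio of 1.44. They included members of the tumour necrosis factor receptor family, TNFRSF4 (OX40; log2 3.66), TNFRSF18 (GITR; 2.85) and TNFRSF25 (2.47), and SLAMF1 (2.38), while TNFRSF9 (4-1BB) read -0.05. Of 8 other checkpoint receptors, 0 were higher and 3 lower in CD4 T, with a median of -0.65. CD244, a receptor of NK and CD8 T cells, read -2.00, CD101 and the ectonucleotidase gene ENTPD1 -1.12 each, and PVRIG, a further nectin receptor, -0.84. CTLA4 and PDCD1, inhibitory receptors themselves, thus differed in direction from the 3 checkpoint genes of this list that passed 2-fold.

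Genes of helper subsets stood with the members that were high in CD4 T. Of 15 regulatory T cell genes measured, 6 were 2-fold or more higher in CD4 T and 1 lower, led beyond the receptors above by the chemokine receptor CCR4 (log2 3.45) and the interleukin 2 receptor chain IL2RA (2.95). Of 7 follicular helper genes, 4 were higher and 0 lower: CD200 (2.58), the transcription factor MAF (1.92), IL6R (1.66) and TOX2 (1.54). Cytotoxic granule genes stood with CD96 and CRTAM, with 7 of 10 lower and 1 higher in CD4 T and a median of -2.58, including GZMA (-4.23), CTSW (-3.04) and PRF1 (-2.89), against SRGN (1.32). Of 26 genes that signal downstream of these receptors, 3 were higher and 2 lower, with a median of 0.30 beside 0.11 for all genes. Of 16 cell division genes, 0 passed 2-fold either way between CD4 T and CD8 T.

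CD8 T barcodes were divided by at least 2 UMIs over 5 killer genes (GZMA, GZMB, GZMM, PRF1 and GNLY), a division chosen after the data were seen. CTLA4 and ICOS were at least 2-fold higher in barcodes with killer genes, 2 of the 6 members measured, where 2.91% of all genes were higher and 7.76% lower. ICOS read 35.6 CPM with and 15.9 without killer genes (ratio 2.24, 1.66 to 3.03), and after thinning was seen in 5.08% of 590 and 0.983% of 1017 barcodes. PDCD1 read 32.1 and 16.4 CPM, a ratio of 1.96 (1.45 to 2.67) just short of 2-fold, with thinned shares of 5.08% and 1.57%. CTLA4 rested on 18 and 7 UMIs. A broader division by all 10 granule genes left 11 of 1642 CD8 T barcodes without them, with 0 UMIs of every measured member but CD96, so its fitted 3 of 6 past 2-fold are not read (3.72% of all genes higher, 67% lower).

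CD96 and CRTAM leaned the other way within CD8 T. CD96 read 190 CPM with and 272 without killer genes, and CRTAM 73.7 and 123. Both ratios were short of 2-fold, at 0.699 (0.634 to 0.769) and 0.599 (0.514 to 0.697). Both genes, highest in CD8 T among the gates, thus read lower in its barcodes with killer genes than in those without.

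T barcodes with at least 2 UMIs over 11 genes of mitosis were compared with all other T barcodes, also a choice made after the data were seen. CTLA4 (46.4 against 22.8 CPM; ratio 2.04, 1.64 to 2.52) and TIGIT (ratio 2.26, 0.961 to 4.76, which includes 1) were 2-fold higher, and CRTAM (34.7 against 84.4 CPM; 2.43-fold, 1.94 to 3.08) was lower. Of all genes, 13.2% were 2-fold or more higher and 4.77% lower, so 2 and 1 of 8 members is near the background. The mitotic barcodes were deeper (median 7951 against 2877 UMIs), and thinned to equal depth CTLA4 was seen in 2.26% of 177 and 2.06% of 5296 barcodes. CRTAM kept its direction, at 3.95% and 9.74%. A broader division by 16 genes of the cell cycle put 3416 of 5624 T barcodes on the dividing side. There CD40LG, at 14.8 against 30.3 CPM (ratio 0.488, 0.402 to 0.593), was the 1 member of 8 past 2-fold, with 15.8% of all genes higher and 1.28% lower. Without barcodes of other classes, or without the deepest 1%, 0 of 8 passed, and the share of barcodes with a CD40LG UMI was 5.80% on the dividing and 5.34% on the other side.

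FOXP3 (ENSBTAG00000013279), the regulatory T cell factor, was almost absent from the counts. The adult T barcodes held 11 FOXP3 UMIs in 10 barcodes, of which 5 were CD4 T, 3 double-negative, 1 double-positive and 1 CD8 T, and the newborn T and NK barcodes held 0. Of the 10, 5 also had CTLA4 (22 UMIs), against 4.31% of the 5614 other T barcodes. ICOS was seen in 6 of 10 against 16.4%, and PDCD1 in 6 against 11.97%. Of the regulatory list, TNFRSF4 was seen in 6 against 3.42%, LAG3 in 6 against 8.50%, and IL2RA in 4 against 5.01%. IKZF2 (Helios) was seen in 7 against 37.2%, which lies within its interval (34.8 to 93.3). IKZF4, LRRC32, IL10, CCR8, IL1R2 and EBI3 were seen in 0 of 10, and in at most 1.96% of the others. CD40LG and TIGIT were seen in 0 of 10, against 5.63% and 0.837% of the others, shares too low for 10 barcodes to show a difference. Within CD4 T, CTLA4 read 590 CPM in the 5 barcodes with FOXP3 and 109 in the 647 without (ratio 5.40, 3.21 to 8.57). In that division 5 of 7 members measured passed 2-fold, 3 higher and 2 lower, where 28.3% of all genes were higher and 9.5% lower. Of these 5 members CTLA4 alone had an interval of UMI counts that leaves out 1. Its 19 UMIs with FOXP3 lay in 3 of the 5 barcodes. The shares of barcodes with CTLA4 overlapped, at 60% (14.7 to 94.7) and 18.1% (15.2 to 21.3). ICOS and PDCD1 were each seen in 4 of these 5 CD4 T barcodes, against 45.4% and 28.1% of the CD4 T barcodes without FOXP3. Among all T, the barcodes with FOXP3 were deeper, with a median of 4113.5 against 2903.5 UMIs. The parts of depth and of the gate in these shares were not tested.

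Because FOXP3 marked so few barcodes, CD4 T barcodes with a CTLA4 UMI (120) were set beside those without (532), a comparison added after the data were seen. Their median depths were close, at 3135.5 and 2968 UMIs. Of the 6 other members measured, 2 were at least 2-fold lower with CTLA4 and 0 higher, where 6.3% of all 7503 genes were higher and 6.74% lower. CD96 read 11.3 CPM with and 86.3 without CTLA4 (7.60-fold lower, 3.92 to 16.9), and CRTAM 8.83 and 26.7 (3.03-fold, 1.38 to 7.87). PDCD1 read 130 and 82.5 CPM (ratio 1.57, 1.22 to 2.02), and CD40LG 36.6 and 58.6 (0.624, 0.402 to 0.941). ICOS, at 185 and 173 CPM, and CD28 had intervals that include 1.

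Other regulatory T cell genes accompanied CTLA4. Of 13 measured, 6 were 2-fold or more higher in barcodes with CTLA4 and 0 lower. The largest were the inhibitory receptor LAG3 (94.6 against 8.44 CPM, log2 3.46) and TNFRSF4 (168 against 18.8, log2 3.15), with the cytokine gene IL10 (log2 2.64) and IL2RA (1.94). TNFRSF9 (2.93), from the costimulatory list, and the follicular helper gene TOX2 (2.91) were also higher. IKZF2, named after its values were seen, read 1.08 and was found in 25.8% of 120 barcodes with and 9.87% of 527 without CTLA4 after thinning. TNFRSF18 read 1.13, in 18.3% and 6.83%.

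Genes of division, killing and quiescence also differed across this division. Of 15 cell division genes, 13 were higher with CTLA4 and 0 lower, but from few barcodes: UBE2C (log2 3.75) had 142 UMIs in 9 of the 120. The barcodes with CTLA4 held 793018 UMIs in all and the 532 others 2133238, so deep barcodes weigh more among the former. Thinned, the proliferation gene MKI67, named after its values were seen, was found in 5.83% (2.38 to 11.7) and 1.90% (0.914 to 3.46), which overlap. Of 9 granule genes 6 were lower, among them GNLY (-2.69), NKG7 (-2.20) and CTSW (-1.75). IL7R, the receptor for a survival cytokine of resting T cells, read -1.51 and was seen in 45.8% with and 63.2% without CTLA4 after thinning, and TCF7 read -1.50. Without the barcodes that also met the rule of another class, CD96 read -3.02, LAG3 3.53 and TNFRSF4 3.05, with 7.58% of all genes higher and 7.51% lower.

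**Figure D3:**
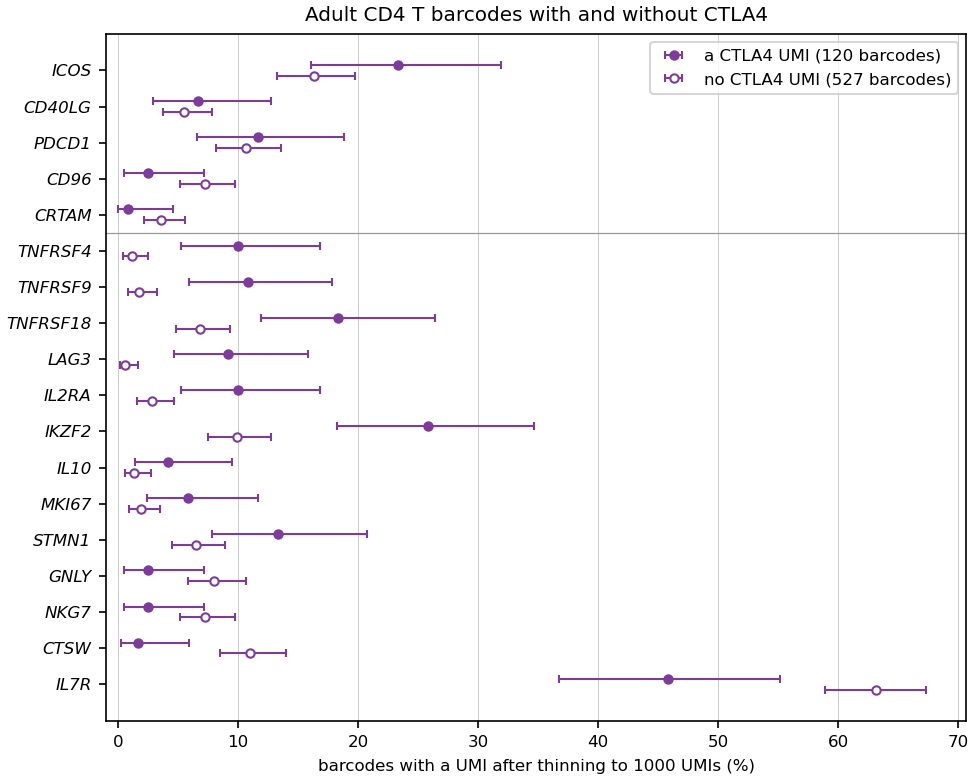
Share of adult CD4 T barcodes with a UMI of each gene after thinning every barcode to 1000 UMIs, for 120 barcodes with and 527 without a CTLA4 UMI, with exact binomial intervals; members are above the line and genes of the other lists below it. TNFRSF4 (10.0% against 1.14%), LAG3 (9.17% against 0.569%) and IKZF2 (25.8% against 9.87%) are more frequent with CTLA4, and IL7R (45.8% against 63.2%) is less frequent. CD96 is lower with CTLA4 (2.50% against 7.21%), with intervals that overlap.

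Members were next read in the same barcodes at equal depth, in a separate random thinning to 1000 UMIs. Among CD4 T barcodes, ICOS was seen in 32.0% (21.7 to 43.8) of the 75 with CTLA4 and 19.6% (16.4 to 23.1) of the others, and PDCD1 in 17.3% and 9.09%, with intervals that overlap. CD96 was seen in 1.33% of the 75 and 6.64% of the others, a difference that rests on few barcodes. CRTAM was found in 15.4% of CD4 T barcodes with CD96 and 1.97% of those without. The pair that is high in CD8 T thus also shared barcodes in the CD4 gate.

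Double-negative barcodes gave differences in the same directions. ICOS was seen in 26.7% of the 45 with CTLA4 and 6.23% of the others, CD28 in 6.67% and 0.65%, and CD96 in 2.22% and 21.2%. Among the 195 with ICOS, CD96 was seen in 6.67% against 21.9%, CD40LG in 7.18% against 2.05%, and PDCD1 in 10.3% against 3.66%. CRTAM was found in 14.0% of barcodes with CD96 and 9.25% without, and in CD8 T barcodes in 15.6% and 10.9%. In both gates the share with ICOS was thus higher, and the share with CD96 lower, beside CTLA4 than without it. In CD4 T, however, the ICOS intervals overlapped and the CD96 difference rested on few barcodes. No test of these differences was made. Without thinning, no member was seen in 20.1% of CD4 T, 24.4% of CD8 T, 29.7% of double-negative and 50% of NK barcodes.

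Across 12 adult classes of at least 50 barcodes, the genes with the most similar level pattern to each member were ranked by Pearson's r of log2(CPM + 1) among 11330 genes, as a description. The classes share 1 library, and most genes of lymphocytes are near 0 in the other classes, so high values are common. CTLA4 was most like CD28 (0.94) and IL4 (0.92), ICOS like IFNG (0.94) and CD5 (0.93), and CD40LG like THEMIS (0.94) and IL4 (0.94). CD96 was most like TRAT1 (0.98) and XCL1 (0.98), and CRTAM like AKAP5 (0.98) and PTPN22 (0.96). PDCD1 had the lowest leading value of the 9, with WNK1 at 0.89.

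In the adult library PDCD1 was the 1 member with most of its UMIs outside the T and NK gates. Over all adult barcodes, removed ones included, 40.9% of its UMIs (970 of 2372) lay in T and NK barcodes, against 63.5% to 78.6% for the other members. Among kept barcodes the shares were 47.5% and 77.0% to 87.0%. In the newborn library the PDCD1 share was 3.03% (29 of 956). CD40LG and FOXP3, with 3 and 1 newborn UMIs, also lay mostly outside these gates. Adult endothelial barcodes read 64.5 CPM (59.7 to 69.6; 664 UMIs) and 22.0% of the 2123 held a UMI, above the CD8 T level of 23.0 CPM and below the CD4 T level of 95.3. Thinned to 1000 UMIs, PDCD1 was found in 6.21% of endothelial, 10.97% of CD4 T, 2.74% of CD8 T and 0.560% of epithelial barcodes. The 1718 adult lymphatic endothelial barcodes read 62.5 CPM (57.0 to 68.5) and the 43 venous ones 19.5 from 4 UMIs, a ratio of 3.21 (1.25 to 11.8). Their shares with a UMI overlapped, at 20.2% (18.3 to 22.2) and 9.30% (2.59 to 22.1). Endothelial barcodes in neither group were not read apart, and the whole class, at 64.5 CPM, read close to the lymphatic ones.

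The endothelial barcodes held little else of T cells. CD3E, CD3D, CD3G and NCR1 are at 0 there by the gate rule. With these included, the 9 T cell markers summed to 17.6 CPM with 5 detected, and the 10 NK markers to 18.6. CTLA4, ICOS, CD28 and CD40LG were found in 0.141%, 0.471%, 0.047% and 0.047% of endothelial barcodes. In the RefSeq annotation of the ARS-UCD2.0 assembly, which may differ from the one behind the counts, the genes beside PDCD1 are NEU4 and RTP5. Both had 0 UMIs in every class and every T and NK gate of both libraries, so their counts do not set endothelial barcodes apart. Whether transcripts that overlap PDCD1 in the annotation behind the counts add to its UMIs was not tested. Adult macrophages or monocytes read 47.2 CPM (31.6 to 67.8), mast cells 18.0, fibroblasts 11.7 and epithelial barcodes 2.98, and the 40 B cell barcodes held 0 UMIs.

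The newborn library showed PDCD1 in the same class. Its 77 endothelial barcodes read 71.3 CPM (49.0 to 100; 33 UMIs), with a UMI in 24.7%. The T and NK markers were all at 0 in them, which the gate rule fixes for CD3E, CD3D, CD3G and NCR1. The newborn lymphatic barcodes read 86.0 CPM from 26 UMIs. Fibroblasts, with 6584 barcodes the largest newborn class, read 16.3 CPM (14.9 to 17.8; 506 UMIs), and 6.64% held a UMI.

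**Figure D4:**
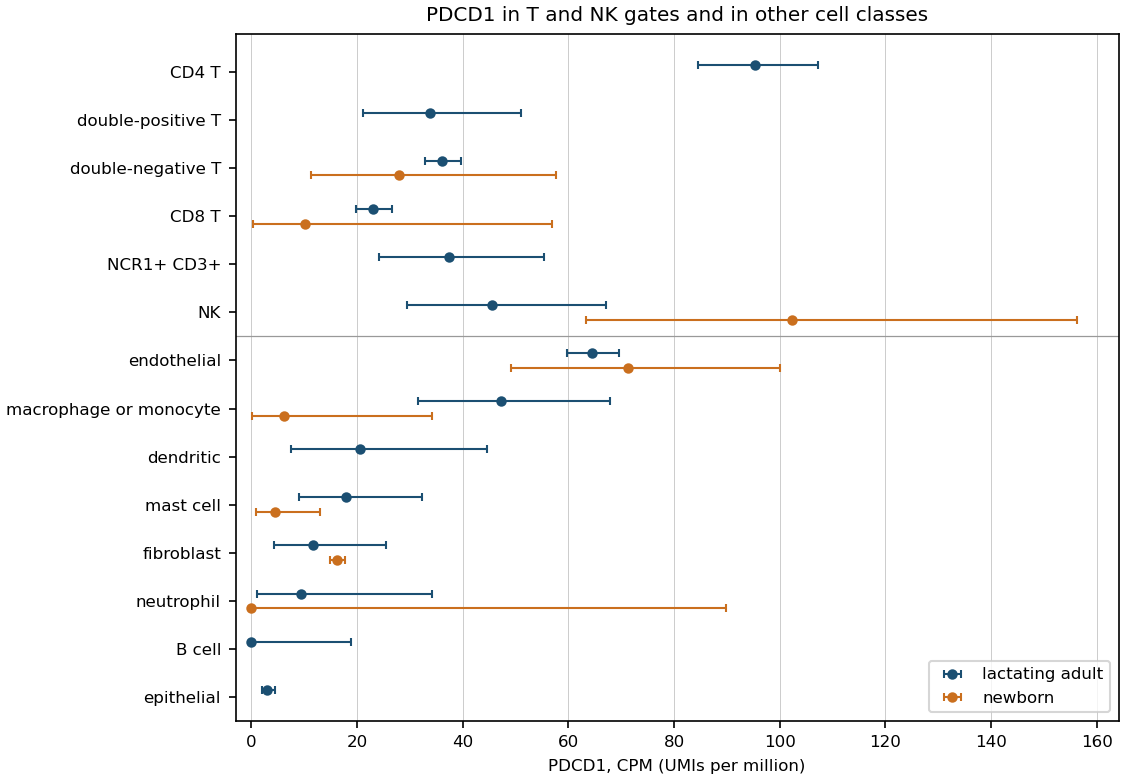
PDCD1 level by cell class in each library, in CPM with exact Poisson intervals as bars; each class drawn has at least 15 barcodes. Endothelial barcodes (64.5 CPM in the adult, 71.3 in the newborn) lie between adult CD4 T (95.3) and CD8 T (23.0), and newborn NK barcodes read 102.

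The ligands of these receptors were read by class in the adult library. CD86, the ligand of CD28 and CTLA4, read 228 CPM (192 to 269) in macrophages or monocytes and 127 (89.1 to 174) in dendritic cells, against 15.4 in CD4 T barcodes. CD80, its relative, was low, at 14.7 CPM in macrophages and 9.91 in endothelial barcodes. CD40, the receptor for CD40LG, read 173 (141 to 209) in macrophages, 68.4 in dendritic, 61.3 in B cell and 37.2 (33.6 to 41.1) in endothelial barcodes. The ligand of ICOS was not analysed here.

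Inhibitory ligands and the ligands of TIGIT, CD96 and CRTAM were read in the same way. CD274 (PD-L1) read 66.7 CPM (47.9 to 90.5) in macrophages and 5.73 in endothelial barcodes, and PDCD1LG2 was at 0 UMIs in macrophage, dendritic, endothelial and epithelial barcodes. PVR, bound by TIGIT and CD96, read 288 CPM in neutrophils, 239 in macrophages, 194 (185 to 202) in endothelial and 141 (134 to 149) in epithelial barcodes. NECTIN2 was highest in epithelial barcodes, at 135 (127 to 142). CADM1, the ligand of CRTAM, read 44.0 in macrophages, 42.6 in neutrophils, 37.6 in dendritic and 27.1 (23.7 to 30.8) in epithelial barcodes, against 2.23 in endothelial barcodes.

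**Figure D5:**
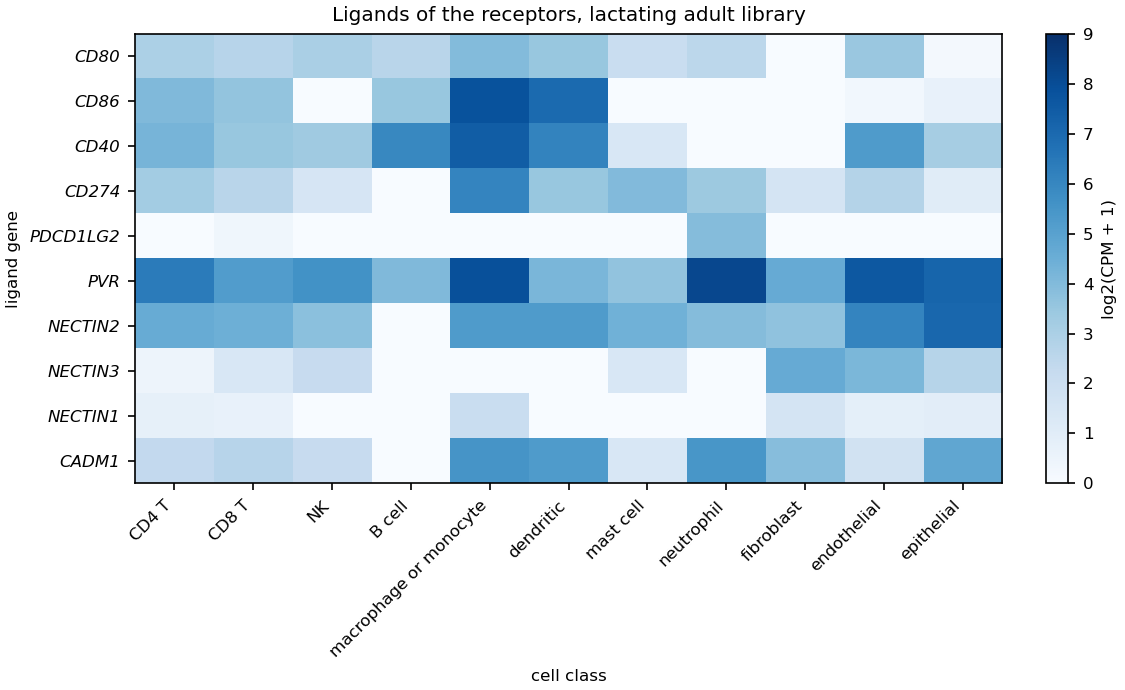
Level of each ligand in the adult cell classes, as colour for log2(CPM + 1). Macrophages or monocytes carry CD86 (228 CPM), CD40 (173) and CD274 (66.7), while PVR is spread over neutrophils, macrophages, endothelial and epithelial barcodes (288, 239, 194 and 141).

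The newborn library held 70 T barcodes, of which 4 were CD4 T, 19 CD8 T, 45 double-negative and 2 with NCR1, besides NK barcodes. ICOS, CD40LG and CD96 were 2-fold or more lower in newborn than in adult T, 3 of 8 members measured and 0 higher. Over 11958 genes 18.1% were 2-fold or more higher and 12.7% lower in newborn T, with a median log2 ratio of 0.20. CD96 read 49.8 CPM (30.4 to 76.9; 20 UMIs) in newborn and 192 (187 to 198) in adult T, a 3.86-fold difference (2.49 to 6.32). ICOS read 14.9 CPM from 6 UMIs, all in 3 of the 4 CD4 T barcodes, against 60.6, and CD40LG had 1 UMI.

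The remaining members were closer to the adult level or too sparse in newborn T. CRTAM read 49.8 against 79.7 CPM (1.60-fold lower, 1.03 to 2.63), and PDCD1 19.9 against 38.9 (1.95-fold, 0.986 to 4.53). CTLA4 had 5 UMIs, CD28 had 1, and FOXP3 and TIGIT had 0, which allows up to a level above that in adult T. With CD8 T and double-negative barcodes alone, which removes the unequal share of CD4 T, CD96 remained 4.58-fold (2.82 to 8.02) lower, in a comparison where 18.4% of all genes were 2-fold or more higher and 13.7% lower. ICOS had 0 UMIs there, against 45.1 CPM in the adult.

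The 35 newborn NK barcodes held more PDCD1 and CD96 UMIs than the 70 newborn T barcodes. PDCD1 read 102 CPM (63.3 to 156; 21 UMIs) in 28.6% of them, CD96 141 (94.6 to 203) and CRTAM 48.7. Of the naive and memory genes, 6 of 14 were 2-fold or more higher and 3 lower in newborn T. Their median log2 ratio was 0.23, beside 0.20 for all genes. Among the higher ones were LEF1 (2.42), a transcription factor of naive T cells, and CCR7 (2.05), a receptor for homing to lymph nodes. Of 11 other costimulatory receptors measured, 2 were higher and 2 lower, with a median of 0.14, so the list as a whole did not stand above all genes. TNFRSF18, one of the higher, read 3.31. Of 10 granule genes, 6 were lower and 2 higher. The fibroblast markers summed to 2595 CPM in newborn T barcodes, against 37073 in newborn fibroblasts, and their part in these differences was not tested.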

How the data were processed

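The data were 1 single-cell library of lactating adult and 1 of newborn Holstein mammary gland. They were read as the raw UMI counts the authors deposited, for which the submitters' processing notes name Cell Ranger 3.1.0. Build and annotation were not given in the sources used here. No coordinates or sequences are printed. The adult library held 85388618 and the newborn 65597671 UMIs.

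Barcodes with at least 300 genes and at most 20% mitochondrial UMIs were kept. Scrublet (scanpy 1.11.5) marked 0 doublets on its own, so the highest scores were removed at 0.8% per 1000 barcodes. UMIs were summed per gate and scaled to CPM. A gene was measured at 20 or more UMIs in both gates together, and 2-fold was the size rule. Intervals are exact Poisson (levels), conditional binomial (ratios) and Clopper-Pearson (shares), at 95%. Log2 ratios carry a prior of 0.5 UMIs, and genes at 0 a floor of 3 UMIs. Other classes needed at least 3 UMIs from at least 2 markers of 1 class alone, no CD3 and no NCR1. Calculations used numpy 2.4.6, scipy 1.17.1 and pandas 2.3.3 and were tested on simulated data.

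All members are named, and from each gene list up to 4 genes with the largest ratio in the prevailing direction and 1 in the other. Members and lists were chosen with earlier results of these data known. The divisions by killer genes, mitotic genes and CTLA4, lymphatic against venous endothelium, the CD8 T and double-negative newborn comparison, and the setting without the deepest barcodes were chosen after seeing the data. The planned divisions by granule and division genes were too uneven or too broad, and their counts are in the closing section.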

Additional observations from a re-analysis of the deposited data

Results flagged for a closer look

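PDCD1 outside the T and NK gates was flagged in 3 classes, above the limit that a count of 0 allows. It read 64.5 CPM in adult endothelial, 71.3 CPM in newborn endothelial and 16.3 CPM in newborn fibroblast barcodes. These are not the only classes with PDCD1. Adult macrophages or monocytes read 47.2 CPM (31.6 to 67.8) and mast cells 18.0, while adult B cell barcodes held 0 UMIs. In the adult endothelial class the 9 T cell markers summed to 17.6 CPM, with CD3E, CD3D and CD3G at 0 by the class rule. In newborn endothelial barcodes the T and NK markers were at 0, which the class rule fixes for CD3E, CD3D, CD3G and NCR1. Whether overlapping transcripts in the annotation add to these UMIs was not tested.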

How the results depend on the processing

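No paired analysis was possible because each stage is 1 library with no replicates. For CD4 T over CD8 T and double-negative over CD4 T, 7 or 8 members passed 2-fold under every setting run, always in the direction reported. TIGIT made the difference: it had too few UMIs against CD8 T in 4 settings, and was short of 2-fold against double-negative T with 3 CD3 UMIs, without doublet removal and without the deepest 1% (double-negative over CD4 T as high as -0.81 on the log2 scale). Over all comparisons, 86 main values stayed and 16 did not. Most are counts of members past 2-fold, which stayed when within 1.5 times of the value reported. The others are the ICOS share beside CTLA4 in CD4 T at other depths, which lay outside its main interval and is among the 16. Of the single-gene values 618 stayed, 41 moved and 6 reversed. The counts that moved were as follows, with the number in the main setting first. NK over CD8 T, 2 of whose calls are genes with 0 NK UMIs, went from 5 to 3 with 2 NCR1 UMIs and to 2 with 2 UMIs of the gate marker. T with NCR1 over NK went from 1 to 2 without doublet removal. Newborn over adult T went from 3 to 5 without doublet removal and to 5 with median-of-ratios scaling. The CTLA4 division went from 2 to 1, and the FOXP3 division from 5 to 3, with 2 UMIs of the gate marker, and the FOXP3 division to 3 with 2 FOXP3 UMIs. The planned division by 2 UMIs over 16 cell division genes went from 1 to 2 with 10 UMIs per gene, 3 with 11 mitotic genes, and 0 without barcodes of other classes or without the deepest 1%. The planned granule division of CD8 T, which left few barcodes without granule genes, went from 3 to 5 with 3 CD3 UMIs and to 5 with median-of-ratios scaling. In it CD40LG reversed to 1.84 and CTLA4 to 1.28 at 5 granule UMIs, CTLA4 to 1.77 with 5 killer genes, and CRTAM to -0.070 with 3 CD3 UMIs, -0.61 with 2 UMIs of the gate marker and -0.74 with 5 killer genes. ICOS among CD4 T barcodes with CTLA4 moved from 32.0% to 46.4% when thinned to 2000 UMIs and 10.8% when thinned to 500 UMIs. Apart from thinning and settings that change which barcodes or genes enter, the cause was not tested. Depth limits FOXP3, TIGIT and CD28, most NK values and all newborn values.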
